A study of Mus musculus with 12 samples.

Results

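The genes of 7 receptors were followed across sorted mouse kidney cells: Avpr1a, Pth1r, Calcr, Gcgr, Casr, Sucnr1 and P2ry2. They were taken by gene symbol, and all 7 were found among the 23378 genes of the table. Each encodes a G protein-coupled receptor through which tubule cells read a signal from blood, tubular fluid or neighbouring cells. Avpr1a is the V1a receptor for vasopressin, Pth1r the receptor for parathyroid hormone and its related peptide, Calcr the receptor for calcitonin, and Gcgr the receptor for glucagon. Casr is the calcium-sensing receptor, Sucnr1 the receptor for succinate, and P2ry2 a receptor for extracellular ATP and UTP.

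As background, the receptors for parathyroid hormone, calcitonin and glucagon belong to the secretin-type family and act mainly through Gs and cyclic AMP. The V1a, calcium-sensing and P2Y2 receptors act largely through Gq, phospholipase C and release of calcium from stores, and the calcium-sensing and succinate receptors also couple to Gi. In the thick ascending limb of the loop of Henle, the calcium-sensing receptor restrains reabsorption of calcium and salt. Vasopressin, parathyroid hormone, calcitonin and glucagon are each known to act on cyclic AMP along parts of the distal nephron.

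All mice in every group carried the nNosCreERT2-mTmG model on a C57BL/6 background, in which Cre recombinase is driven by the gene of neuronal nitric oxide synthase (Nos1) and recombined cells switch from red tdTomato to green GFP. Green cells were collected as the macula densa, the plaque that senses salt where the thick ascending limb meets its glomerulus. The reddest cells were sorted as control cells, intended by the labels to stand for distal tubule and collecting duct epithelium. Mice on control diet gave 2 macula densa and 4 control-cell libraries, and mice on low salt diet (TD 90228) with enalapril gave another 2 and 4. Enalapril, an inhibitor of angiotensin-converting enzyme, was given at 150 mg/L in drinking water, and treatment lasted 14 days. The age of the mice, and whether libraries came from separate animals, are not given in the sources used here, so p-values measure the spread between these libraries, which may be partly technical.

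Libraries held 4259034 to 14856540 counts, so that 3 counts corresponded to 0.231 to 0.734 CPM (the count relative to the effective library size). The gene Gm42418 alone held 53.5% to 58.9% of the counts in macula densa libraries and 58.9% to 65% in control-cell libraries. CPM values are relative to totals that include it. Nos1, which drives the Cre, stood at 100 to 232 CPM in macula densa libraries and at 0.109 to 0.734 CPM in control cells. The control-cell libraries held Aqp2, the water channel of principal cells, at 47.5 to 252 CPM, but also the endothelial gene Pecam1 at 7.44 to 136 CPM. Summed over 6 podocyte markers, the level ran from 39.9 to 1100 CPM in control cells on control diet, from 126 to 928 CPM on low salt with enalapril, and from 18.5 to 127 CPM in macula densa cells. The 8 endothelial markers together gave 44.2 to 1300 CPM, 229 to 1050 CPM and 10.2 to 145 CPM in the same groups, and none of these markers was without counts in either control-cell group. The label of distal epithelium was therefore only partly borne out by the markers. Control-cell replicate 4 on control diet stood apart, with the lowest podocyte (39.9 CPM) and endothelial (44.2 CPM) sums and the highest sums for thick ascending limb (1680 CPM), principal cells (931 CPM) and intercalated cells (356 CPM). In sorted bulk samples, fewer cells of a type and less RNA per cell cannot be told apart.

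The receptors' start regions are shown for the genes whose levels separated the 2 cell populations. Each line gives 250 bases up to a transcript start annotated by RefSeq on GRCm38.p6, written 5′ to 3′ in the gene's direction. Capitals mark matches, on either strand, to 8 short motifs: the TATA box TATAAA, the GC box GGGCGG, the cyclic AMP response element TGACGTCA, the HNF1 core GTTAAT, the nuclear receptor core AGGTCA, the AP-1 site TGANTCA, the AP-2 site GCCNNNGGC and the box CCAAT.
Casr, chr16:36562135-36562384, minus strand: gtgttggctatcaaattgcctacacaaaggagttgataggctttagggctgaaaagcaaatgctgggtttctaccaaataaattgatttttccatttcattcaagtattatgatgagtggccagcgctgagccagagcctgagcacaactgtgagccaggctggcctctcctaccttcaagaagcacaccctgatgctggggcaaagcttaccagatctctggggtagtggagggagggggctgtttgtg
Gcgr, chr11:120530477-120530726, plus strand: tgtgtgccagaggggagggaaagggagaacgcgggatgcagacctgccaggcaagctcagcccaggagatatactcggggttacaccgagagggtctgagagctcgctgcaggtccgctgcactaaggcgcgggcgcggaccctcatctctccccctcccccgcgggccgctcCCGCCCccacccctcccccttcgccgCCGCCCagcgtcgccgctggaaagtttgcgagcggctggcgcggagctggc
Avpr1a, chr10:122448249-122448498, plus strand: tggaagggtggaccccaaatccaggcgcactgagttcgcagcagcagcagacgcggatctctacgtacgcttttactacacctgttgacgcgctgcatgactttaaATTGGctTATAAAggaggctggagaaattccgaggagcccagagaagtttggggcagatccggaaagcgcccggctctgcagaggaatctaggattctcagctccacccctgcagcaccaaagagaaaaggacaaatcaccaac
Pth1r, chr9:110747146-110747395, minus strand: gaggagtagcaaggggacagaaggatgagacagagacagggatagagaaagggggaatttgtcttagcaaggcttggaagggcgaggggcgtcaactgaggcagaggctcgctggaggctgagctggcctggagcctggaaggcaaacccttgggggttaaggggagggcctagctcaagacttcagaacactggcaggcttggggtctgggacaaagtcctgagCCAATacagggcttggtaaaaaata
P2ry2, chr7:101012054-101012303, minus strand: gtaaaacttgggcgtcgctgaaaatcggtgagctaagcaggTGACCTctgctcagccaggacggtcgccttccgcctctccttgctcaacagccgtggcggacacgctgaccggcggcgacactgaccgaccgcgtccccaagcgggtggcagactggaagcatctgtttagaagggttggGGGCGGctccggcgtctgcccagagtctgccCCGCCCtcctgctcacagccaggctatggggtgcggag
No motif was shared by all of the 4 genes that were higher in macula densa cells. The Casr window held none of the 8 motifs and 1 CG dinucleotide, against a median of 6 over 32851 promoter windows of this length. The Gcgr window was rich in G and C (70.4%, median of all windows 52.4%) with GC boxes at positions -77 and -51 from the start, a motif present in 32.7% of all windows. Avpr1a carried TATAAA at position -137, found in 12.4% of windows, and the reverse complement of CCAAT at position -144, found in 33.8%. The most upstream of the 3 Pth1r windows held CCAAT at position -25, and the table's counts per gene do not separate its start sites. The other 2 Pth1r windows, not shown, were richer in G and C (65.6% and 70.4%). The first of them held a GC box at position -47. The second held GC boxes at positions -235, -148, -31 and -20 and an AP-2 match at -25. The more upstream of the 2 P2ry2 starts taken from RefSeq is shown, and its window had GC boxes at positions -69 and -38. It also had the reverse complement of AGGTCA, found in 14% of windows, at position -209. The window of the other start, which overlaps it, held GC boxes at positions -124, -93, -53 and -43 and no AGGTCA. The cyclic AMP response element, present in 1.55% of windows, was found in no window of a member. A match describes the letters only.

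Of the 6 receptor genes that could be tested, 4 were higher in macula densa cells than in control cells when both diets were averaged: Casr, Avpr1a, Pth1r and Gcgr. P2ry2 was lower, Calcr did not pass the test, and Sucnr1 had too few counts to be tested. The test was the quasi-likelihood test of edgeR, fitted to all 12 libraries with Benjamini-Hochberg adjustment over 14180 genes and a threshold of 0.05. In the background of all genes tested, 7.48% were called higher and 13.9% lower in this comparison. The median log2 difference of the 6 receptors was 2.18, beside -0.06 for all genes tested. In the same 4 genes every macula densa library lay above every control-cell library on each diet, as in 6.02% of all genes, and in P2ry2 every macula densa library lay below, as in 7.6%. P2ry2 passed the filter on low counts through control-cell libraries alone, which favours that direction. The receptors were chosen with earlier results of these data known, so these shares are no test of the set.

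**Figure D1:**
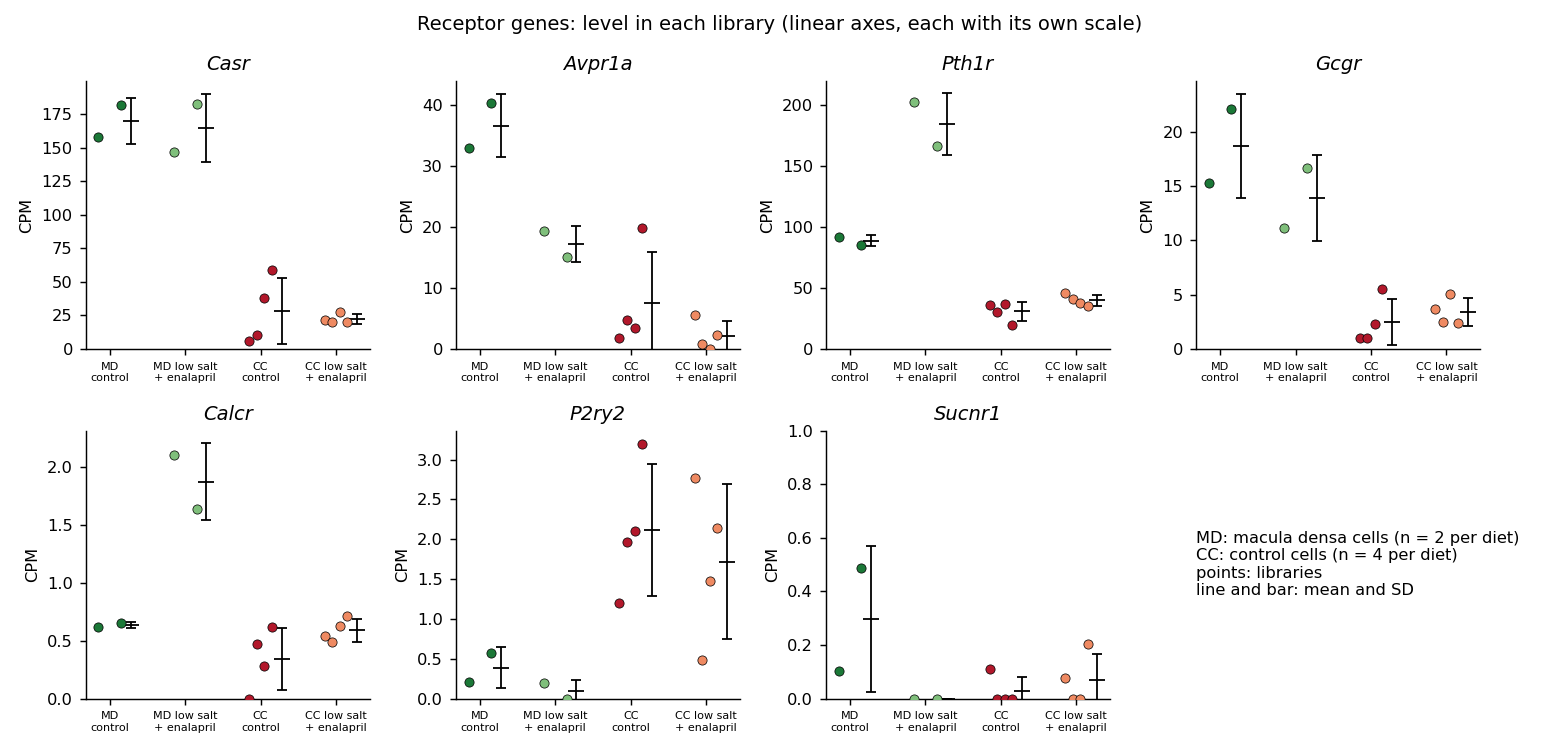
Level of each receptor gene in CPM (linear axis from 0, a separate scale per gene) in 2 macula densa (MD) and 4 control-cell (CC) libraries per diet; points are libraries, the line and bar the mean and SD. Casr, Avpr1a, Pth1r and Gcgr separate the 2 populations upwards, P2ry2 downwards, and Sucnr1 reaches at most 0.489 CPM.

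Casr, the receptor by which tubule cells sense extracellular calcium, was the most abundant of the 7 in macula densa cells on control diet when levels were taken per length. It lies on chromosome 16 at 36493696-36562141 (GRCm38), on the minus strand. Casr measured 158 and 182 CPM in macula densa cells on control diet and 147 and 183 CPM on low salt with enalapril. In control cells it measured 6.12, 10.5, 37.9 and 59 CPM on control diet and 21.8, 20.3, 27.3 and 19.8 CPM on low salt with enalapril. The macula densa libraries of both diets overlapped, and all 4 were above each of the 8 control-cell libraries. The difference was 2.58 on the log2 scale (SE 0.62, edgeR adjusted p = 0.0296) on control diet and 2.89 (SE 0.62, edgeR adjusted p = 0.0187) on low salt with enalapril. Averaged over diets it was 2.73 (SE 0.44, edgeR adjusted p = 0.00144), a 6.65-fold higher level. The control-diet call was lost without macula densa replicate 1 (edgeR adjusted p = 0.108) or 2 (0.183) or control-cell replicate 2 (0.0641) or 3 (0.06) of that diet, and without control-cell replicate 4 the difference was 3.22. The call on low salt with enalapril was lost without macula densa replicate 1 (0.0579) or 2 (0.13) or control-cell replicate 4 (0.0568) of that group, whereas the averaged call was kept in all 20 alternatives run, with edgeR or DESeq2 adjusted p up to 0.00969.

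Avpr1a, the V1a vasopressin receptor, was itself on the marker list used for macula densa cells. It lies on chromosome 10 at 122448499-122453452, on the plus strand. Avpr1a measured 33 and 40.3 CPM in macula densa cells on control diet and 19.3 and 15.1 CPM on low salt with enalapril. Control cells held 1.86, 4.7, 3.43 and 19.9 CPM on control diet and 5.61, 0.734, 0 and 2.24 CPM on low salt with enalapril. One control-cell library, replicate 4 on control diet, held more than 4 times as much as the next library of its group, and it also had the highest sums of its group for 4 tubule cell types. Its intercalated-cell sum was 356 CPM beside 22.3 to 118 CPM in the other 3 and 17.7 to 31.5 CPM in macula densa cells, and its distal convoluted and connecting tubule sum was 821 CPM beside 102 to 241 CPM in the other 3 and 294 to 544 CPM in macula densa cells. Its thick ascending limb sum was 1680 CPM beside 220 to 1070 CPM in the other 3, and its principal-cell sum 931 CPM beside 144 to 483 CPM. The part of those cells in the result was not tested. On control diet the difference was 2.29 (log2, SE 0.85, edgeR adjusted p = 0.123), and on low salt with enalapril it was 2.79 (SE 0.92, edgeR adjusted p = 0.0845), so neither diet alone passed the test. Averaged over diets, Avpr1a was 5.82-fold higher (log2 2.54, SE 0.63, edgeR adjusted p = 0.0137). Without control-cell replicate 4 on control diet, the control-diet difference was 3.45 (edgeR adjusted p = 0.00605) and that on low salt with enalapril 2.75 (0.0176). Without macula densa replicate 2 on control diet the averaged difference was 2.46 (0.0512).

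Among the receptors coupled to cyclic AMP, Pth1r was the most abundant in all 4 groups. The gene lies on chromosome 9 at 110722085-110747145 and shares 95 exon bases with Myl3 on the other strand. Counting is not stated to use strand, but Myl3 held 0 to 7 counts per library. Pth1r measured 92 and 85.5 CPM in macula densa cells on control diet and 203 and 167 CPM on low salt with enalapril. In control cells it measured 36, 30.7, 36.5 and 19.7 CPM on control diet and 45.7, 40.6, 37.8 and 35.4 CPM on low salt with enalapril. On control diet its spread between control-cell libraries, relative to the mean, was small beside that of Casr and Avpr1a. It stood at 30.7 ± 7.78 CPM (SD, n = 4), beside 28.4 ± 24.8 and 7.48 ± 8.39 CPM. On low salt with enalapril the values were 39.9 ± 4.44, 22.3 ± 3.43 and 2.15 ± 2.49 CPM. Control-cell replicate 4 on control diet, which held the most Casr and Avpr1a of its group, held the least Pth1r. The difference was 1.53 (log2, SE 0.24, edgeR adjusted p = 0.00373) on control diet and 2.21 (SE 0.24, edgeR adjusted p = 0.00042) on low salt with enalapril. Averaged over diets it was 3.66-fold higher (log2 1.87, SE 0.17, edgeR adjusted p = 3.72e-05), and none of the 3 calls was lost in the alternatives run. Proximal tubule, a known site of Pth1r, was also read from its 10 markers. Their summed level was 141 to 230 CPM in macula densa cells and 41.1 to 97.2 CPM in control cells on control diet, and 47.1 to 102 CPM and 33.8 to 76.3 CPM on low salt with enalapril. Averaged over diets, 2 of the 10 (Kap and Slc5a12) were called higher in macula densa cells and none lower. The part of proximal tubule cells in the Pth1r difference was not tested.

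Gcgr, the glucagon receptor, lies on chromosome 11 at 120530699-120538986. The antisense gene Gm11789 overlaps it without shared exon bases and held 0 to 24 counts per library. Gcgr measured 15.3 and 22.1 CPM in macula densa cells on control diet and 11.1 and 16.7 CPM on low salt with enalapril. Control cells held 0.984, 1.03, 2.29 and 5.48 CPM on control diet and 3.69, 2.45, 5.04 and 2.34 CPM on low salt with enalapril. The lowest macula densa library, at 11.1 CPM, lay above the highest control-cell library, at 5.48 CPM. The difference was 2.93 (log2, SE 0.54, edgeR adjusted p = 0.00913) on control diet, 2.05 (SE 0.55, edgeR adjusted p = 0.0441) on low salt with enalapril, and 2.49 (SE 0.38, edgeR adjusted p = 0.00114) averaged, a 5.62-fold higher level. With control-cell replicate 4 left out the control-diet value was 3.68, and the call was lost without macula densa replicate 2 (0.126). The call on low salt with enalapril was the weakest of the 3 and was lost without macula densa replicate 1 or 2 or control-cell replicate 1, 2 or 4 of that group, or without macula densa replicate 1 or 2 or control-cell replicate 3 of control diet, with edgeR adjusted p from 0.0684 to 0.268.

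Calcr, the calcitonin receptor on chromosome 6 at 3685680-3764714, was near the limit of detection, with at most 11 counts in a library. It measured 0.616 and 0.652 CPM in macula densa cells on control diet and 2.11 and 1.64 CPM on low salt with enalapril. Control cells held 0, 0.47, 0.286 and 0.62 CPM on control diet and 0.538, 0.49, 0.63 and 0.712 CPM on low salt with enalapril. The populations overlapped on control diet and did not on low salt with enalapril. Calcr passed the filter on low counts only through the macula densa libraries on low salt with enalapril. The gap on that diet is therefore a description and no support for a difference. The averaged difference of 1.23 (log2, SE 0.56, 95% interval 0.02 to 2.45) had an edgeR adjusted p of 0.14.

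P2ry2, a nucleotide receptor, moved in the opposite direction. It lies on chromosome 7 at 100996568-101012866 on the minus strand. P2ry2 held 2 and 7 counts in macula densa cells on control diet (0.205 and 0.57 CPM) and 1 and 0 counts on low salt with enalapril. Control cells held 1.2, 1.97, 2.1 and 3.2 CPM on control diet and 2.77, 0.49, 1.47 and 2.14 CPM on low salt with enalapril. No macula densa library reached the level of a control-cell library of its diet. P2ry2 passed the filter on low counts through control-cell libraries alone, which favours a lower level in macula densa cells. Pooled over libraries, control cells held 5.2 times the level of macula densa cells on control diet (85 against 9 counts, 95% interval 2.62 to 11.8). On low salt with enalapril the ratio was 23.6 (66 counts against 1, interval 4.09 to 945). These exact intervals reflect counting error alone, because pooling leaves out the spread between libraries. The reads carried no molecular identifiers and need not be independent molecules, so even the counting error may be larger. In the fit, P2ry2 was lower by 3.25 on the averaged log2 scale (log2 -3.25, SE 0.67, edgeR adjusted p = 0.00567), with edgeR adjusted p = 0.084 on control diet and 0.0417 on low salt with enalapril. Without macula densa replicate 1 on low salt with enalapril, which held the single count of that group, the averaged value was -4.71, and leaving out any of 7 libraries (macula densa replicate 1 or 2 or control-cell replicate 1, 3 or 4 of that group, or control-cell replicate 2 or 3 on control diet) lost the call on that diet with edgeR adjusted p from 0.0504 to 0.234. The control-cell library with most P2ry2, replicate 4 on control diet at 3.2 CPM, was the one lowest in podocyte and endothelial markers and highest in principal-cell (931 CPM), intercalated-cell (356 CPM) and distal convoluted and connecting tubule (821 CPM) markers. All 9 principal-cell markers and 5 of 7 intercalated-cell markers were called lower in macula densa cells, as was P2ry2. The part of other cell types in the difference was not tested.

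Sucnr1, the succinate receptor on chromosome 3 at 60081869-60087566, was barely detected. It had 1 and 6 counts in the macula densa libraries on control diet and 0 in both on low salt with enalapril. Control cells had 1 count in 1 library on control diet, and 1 and 2 counts in 2 libraries on low salt with enalapril. Pooled on control diet, control cells held 0.0787 times the level of macula densa cells (1 count against 7, exact 95% interval 0.00175 to 0.613, counting error only), but 6 of the 7 counts came from 1 library. Sucnr1 did not pass the filter, so no test over libraries was made.

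**Figure D2:**
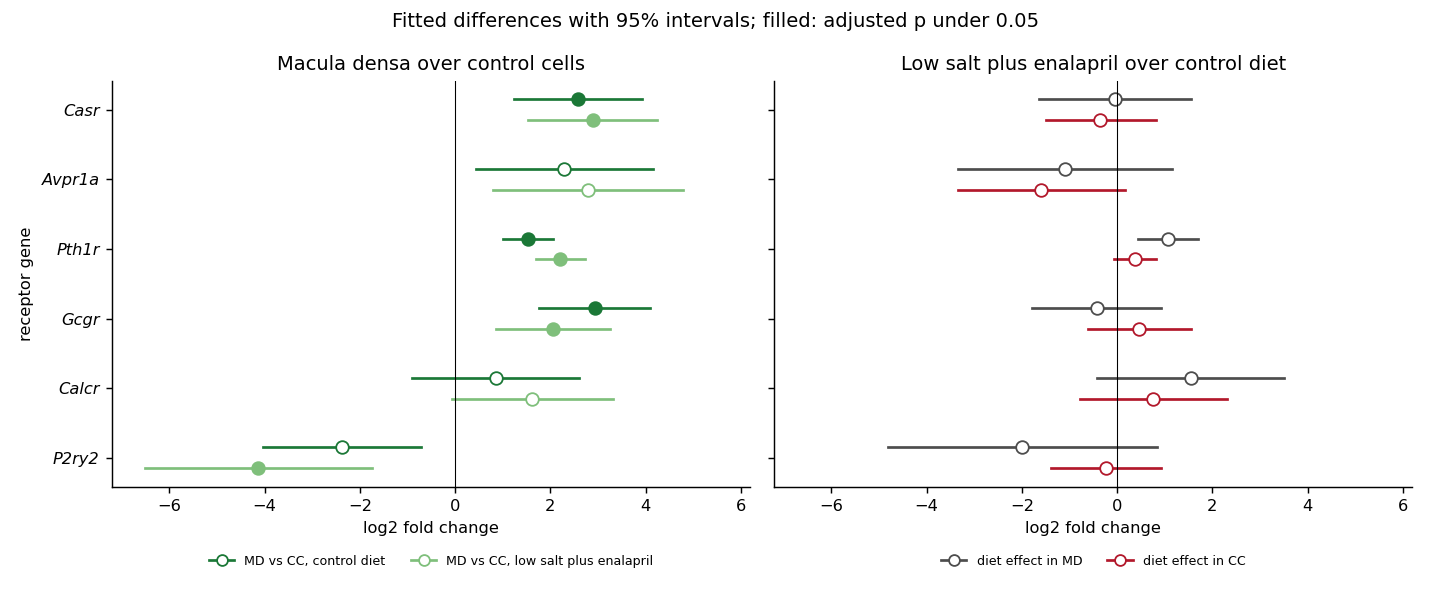
Fitted log2 fold changes with 95% intervals for the 6 tested receptor genes: left, macula densa over control cells on each diet; right, low salt plus enalapril over control diet in each population; filled points passed an adjusted p of 0.05. On the left, 3 genes pass upwards on each diet and P2ry2 passes downwards on low salt with enalapril (a fit that rests on 1 count in macula densa cells), and on the right none passes.

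By diet, 3 receptors were called higher in macula densa cells on control diet (Casr, Pth1r and Gcgr) and none lower, where 2.69% of all genes were called higher and 3.92% lower. On low salt with enalapril the same 3 receptors were higher and P2ry2 was lower, where 3.15% of all genes were called higher and 4.13% lower. Within a population, the levels of the receptors were ordered per kilobase of exon, since longer genes collect more counts. In macula densa cells on control diet the order was Casr (36 ± 3.63 CPM per kilobase, SD, n = 2), Pth1r (30.4 ± 1.57), Avpr1a (13.7 ± 1.93) and Gcgr (7.13 ± 1.83), with no overlap between neighbours. Sucnr1, Calcr and P2ry2 followed at 0.18, 0.162 and 0.0987 CPM per kilobase. On low salt with enalapril Pth1r stood first (63.3 ± 8.6), before Casr (35 ± 5.31), and Avpr1a (6.45 ± 1.13) and Gcgr (5.31 ± 1.52) overlapped. In control cells Pth1r stood first on both diets, at 10.5 ± 2.66 CPM per kilobase (SD, n = 4) on control diet and 13.6 ± 1.52 on low salt with enalapril, followed by Casr at 6.02 ± 5.25 and 4.73 ± 0.726. On control diet these 2 genes overlapped between control-cell libraries, and on low salt with enalapril they did not.

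The treatment was compared within each population. No receptor gene passed the test in macula densa cells or in control cells, and none passed the test of the difference between the 2 treatment effects. Over all genes, edgeR called 0% in macula densa cells, 0.00705% in control cells (the renin gene Ren1) and 0% for the difference, while 1594, 914 and 997 genes had an unadjusted p under 0.05. The Wald test of DESeq2 called 93, 74 and 13 genes, among them 1 receptor (Pth1r in macula densa cells), which was also the only receptor with an unadjusted edgeR p under 0.05. The median log2 difference of the 6 receptors was -0.23 in macula densa cells and 0.07 in control cells, beside -0.02 and -0.04 for all genes.

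Pth1r had the smallest p of the 6 in macula densa cells, with a mean of 88.8 ± 4.59 CPM (SD, n = 2) on control diet and 185 ± 25.2 CPM (n = 2) on low salt with enalapril. The log2 difference was 1.06 (SE 0.29, 95% interval 0.43 to 1.69), with an edgeR adjusted p of 0.261. With the macula densa libraries fitted alone the edgeR adjusted p was 0.0188, and with the Wald test of DESeq2 it was 0.0432. These fits differed from that of all 12 libraries in more than 1 respect (the test, or the libraries and the 11321 genes tested), and which of these moved the call was not tested. In control cells the Pth1r difference was 0.38 (SE 0.2, edgeR adjusted p = 0.871), and the difference between the effects was 0.68 (95% interval -0.08 to 1.45, edgeR adjusted p = 0.743).

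Avpr1a means in macula densa cells were 36.7 ± 5.15 CPM on control diet and 17.2 ± 3.01 CPM (SD, n = 2 each) on low salt with enalapril, a log2 difference of -1.09 (95% interval -3.34 to 1.15, edgeR adjusted p = 0.728). The diets did not overlap in macula densa cells for 4 of the 6 tested receptors (Avpr1a, Pth1r, Calcr and P2ry2), which was also so for 40.6% of all genes. Of these, Calcr had passed the filter on low counts only through the macula densa libraries on low salt with enalapril. In control cells the diets overlapped for all 6, and failed to overlap for 4.2% of all genes. Casr was close to level in macula densa cells, with a log2 difference of -0.04, but its 95% interval of -1.64 to 1.56 left room for a large change. Gcgr differed by -0.42 (95% interval -1.78 to 0.93) in macula densa cells and by 0.46 (-0.62 to 1.54) in control cells. The control-cell Casr difference, -0.35 with all libraries, became 0.29 when replicate 4 on control diet was left out, the library that stood apart in its markers.

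Because the macula densa is part of the thick ascending limb, counts were also set against those of Slc12a1, the furosemide-sensitive salt transporter of that limb, in the same library. This ratio was chosen after the levels had been seen. Slc12a1 measured 1770 to 2030 CPM in macula densa libraries and 41.8 to 430 CPM in control cells. Casr stood at 8.92 and 8.98 counts per 100 Slc12a1 counts in macula densa cells on control diet, and at 7.86 and 9.08 on low salt with enalapril. In control cells the ratio was 14.7 to 19.1 per 100 on control diet and 6.35 to 13.9 on low salt with enalapril. The macula densa libraries thus kept within a narrow span, and the log2 difference of the ratio, macula densa minus control cells, was -0.57. A gene with equal CPM in both populations would stand at -3.58 on this scale, since Slc12a1 itself differed, and 99.7% of the 14179 other tested genes were lower per Slc12a1 count, with a median of -3.63. The ratio is therefore given as a description, with no test between the populations. Between the diets in control cells, the Casr ratio did not overlap (log2 difference -0.8, exact two-sided permutation p = 0.0286, the smallest that 4 against 4 libraries allow, adjusted over the 6 receptors 0.172). In the fit of these cells, Slc12a1 itself differed by 0.64 (log2, edgeR adjusted p = 0.965) and Casr by -0.35. The ratio between diets thus mixes both genes and is a description. Its value for all other genes is not given here.

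Gcgr stood at 0.593 to 1.09 counts per 100 Slc12a1 counts in macula densa cells and at 1.02 to 2.36 in control cells (log2 difference -0.93). Pth1r stood at 4.22 to 10.8 per 100 in macula densa cells and at 6.38 to 86.1 in control cells (log2 difference -1.68). For Avpr1a the ranges were 0.75 to 1.99 and 0 to 7.91 per 100, with a log2 difference of -0.12 that changed sign when single control-cell libraries were left out.

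**Figure D3:**
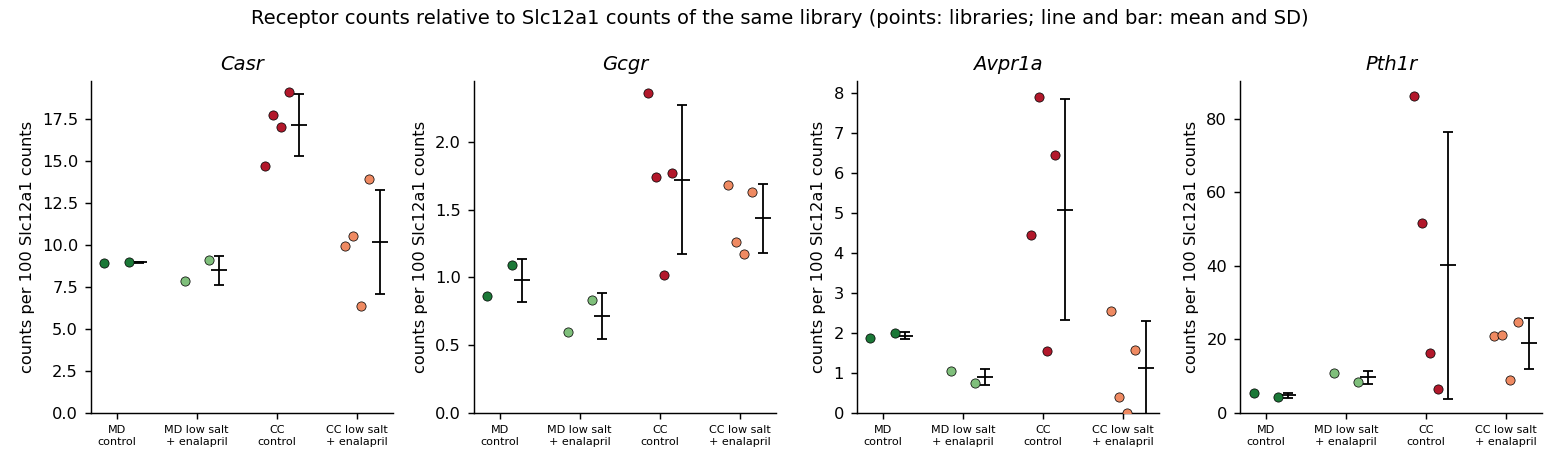
Counts of 4 receptor genes per 100 Slc12a1 counts of the same library (linear axes from 0), in macula densa (MD) and control (CC) cells on each diet; points are libraries, the line and bar the mean and SD. Casr spans 7.86 to 9.08 in the 4 macula densa libraries and 6.35 to 19.1 in control cells, and Pth1r reaches 86.1 in 1 control-cell library.

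The genes most alike in pattern were taken as the 3 with the highest Pearson correlation of log2 CPM over the 12 libraries, among tested genes with a mean of at least 5 CPM. The libraries form 2 populations, so a high value mostly restates that separation. Casr was closest to Scn4b (r = 0.988), Slit2 (0.987) and Ppp1r1a (0.98). Gcgr was closest to Ccdc136 (0.989), Dapk1 (0.98) and Slc12a1 (0.98). Pth1r was closest to Etv1 (0.963), Ptgs2 (0.963) and Mcub (0.957), and Ptgs2, the cyclooxygenase-2 gene, also had its highest values in macula densa cells on low salt with enalapril. Avpr1a was closest to Tecr, Pdxk and Ppp1r9a (0.926 to 0.932), P2ry2 to Kif1c, Pacsin2 and Cish (0.929 to 0.932), and Calcr to Wdr72, Mfsd4b1 and Slc25a30 (0.871 to 0.892).

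The other genes of these pathways were read from 6 lists in the comparison averaged over diets, in which 7.48% of all genes were called higher and 13.9% lower in macula densa cells. Among relatives of the receptors, 22 of 31 were in the table and 8 were tested. None was higher in macula densa cells and 5 were lower: Avpr2, Calcrl, Glp1r, Gprc5a and P2ry1. The filter on low counts, here and in the lists below, also keeps genes that are high in control cells alone. This favours lower levels in macula densa cells. Glp1r, at 0.287 ± 0.175 CPM in macula densa cells on control diet and 0.0958 ± 0.135 CPM on low salt with enalapril, passed through control cells alone. P2ry1 (1.12 ± 0.888 and 0.192 ± 0.271 CPM) and Avpr2 also lay near the floor there. Avpr2, the V2 vasopressin receptor of collecting duct cells, measured 1.37 ± 0.672 CPM in macula densa cells (SD, n = 2) and 12.9 ± 10 CPM in control cells (n = 4) on control diet, with a log2 difference of -3.27 (SE 0.78, edgeR adjusted p = 0.0121). Vasopressin receptors thus separated in opposite directions, with Avpr1a higher and Avpr2 lower in macula densa cells. Calcrl, which forms receptors for calcitonin gene-related peptide and adrenomedullin with RAMP proteins, showed a log2 difference of -4.39 (SE 0.77, edgeR adjusted p = 0.00245), and the nucleotide receptor P2ry1 one of -3.81 (SE 1.03, edgeR adjusted p = 0.021). Beside these, all 9 principal-cell markers and all 8 endothelial markers were called lower in macula densa cells, and their part in these differences was not tested.

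Of the hormone genes, 3 of 11 were in the table and 2 were tested, both lower in macula densa cells. Both passed the filter on low counts through control-cell libraries alone, which favours a lower level in macula densa cells. Their shared direction is therefore a description. Calca, which encodes calcitonin and calcitonin gene-related peptide, measured 0.276 ± 0.0448 CPM in macula densa cells on control diet, was without counts in both macula densa libraries on low salt with enalapril, and measured 1.96 ± 1.06 and 0.633 ± 0.441 CPM in control cells (edgeR adjusted p = 0.0109). Adm, the adrenomedullin gene, had a log2 difference of -2.82 (SE 0.52, edgeR adjusted p = 0.00335).

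Of 10 tested genes for G protein alpha subunits, none was higher and 4 were lower in macula densa cells: Gnaq, Gnai2, Gnao1 and Gna13. Gnaq, which carries the phospholipase C signal, differed by -0.63 (log2, SE 0.19, edgeR adjusted p = 0.0312). With libraries scaled by totals alone, 3 of the 10 were called lower. Of 14 tested effectors, 2 were higher (Itpr1 and the phospholipase Plcb1) and 8 lower. Itpr1, an intracellular calcium release channel, was higher (log2 1.09, SE 0.15, edgeR adjusted p = 0.000658), at 209 ± 4.09 CPM in macula densa cells and 114 ± 26 CPM in control cells on control diet, and Itpr2 of the same family was lower (-1.62, SE 0.34, edgeR adjusted p = 0.00638). The cyclases Adcy5 (-2.52, edgeR adjusted p = 0.00202) and Adcy9 (-1.01, 0.00901) and the phospholipase Plcb3 (-0.85, 0.00831) were lower. The part of other cell types in these differences was not tested.

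Of 16 tested accessory and desensitisation genes, 3 were higher and 8 lower, or 3 and 4 with libraries scaled by totals alone. Ramp3, which pairs with the calcitonin receptor and its relatives, was higher (log2 2.63, SE 0.49, edgeR adjusted p = 0.00364), at 7.32 ± 1.25 CPM in macula densa cells and 1.5 ± 1.12 CPM in control cells on control diet. The receptor kinase Grk3 was higher (1.48, edgeR adjusted p = 0.00261) and Grk5 lower (-1.85, 0.000363). Rgs5, a regulator of G protein signalling known from pericytes, was lower (-3.17, edgeR adjusted p = 0.000456), as was the scaffold gene Slc9a3r2 (-3.77, 0.0028). Rgs5 is also on the list of markers of mesangium, smooth muscle and renin cells, of which all 9 were called lower in macula densa cells, and their part in the counts was not tested.

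Of 21 tested genes on the list of regulated transport and hormone genes, 7 were higher in macula densa cells and none was lower. Whether the receptors control these genes in these cells was not tested. The 7 were Slc12a1, Cldn16, Cldn10, Atp2b4, Vdr, Ptgs2 and Nos1, of which Nos1 drove the sort. Slc12a1, Ptgs2 and Nos1 were also on the marker list used for macula densa cells. Atp2b4, a plasma membrane calcium pump, was at 106 ± 2.88 CPM in macula densa cells and 14.5 ± 2.94 CPM in control cells on control diet (log2 2.75, SE 0.18, edgeR adjusted p = 3.11e-06). Vdr, the vitamin D receptor, was higher by 2.03 (SE 0.29, edgeR adjusted p = 0.000672) and Slc12a1 by 3.28 (SE 0.46, edgeR adjusted p = 0.00065). Ptgs2 was higher by 6.7 (SE 0.47, edgeR adjusted p = 6.81e-06), and its means in macula densa cells were 15.1 ± 1.16 CPM on control diet and 142 ± 47.6 CPM on low salt with enalapril. Beside these, 6 of 10 thick ascending limb markers were called higher in macula densa cells, with summed levels of 2520 to 4420 CPM against 220 to 1680 CPM in control cells, and their part in the differences was not tested.

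**Figure D4:**
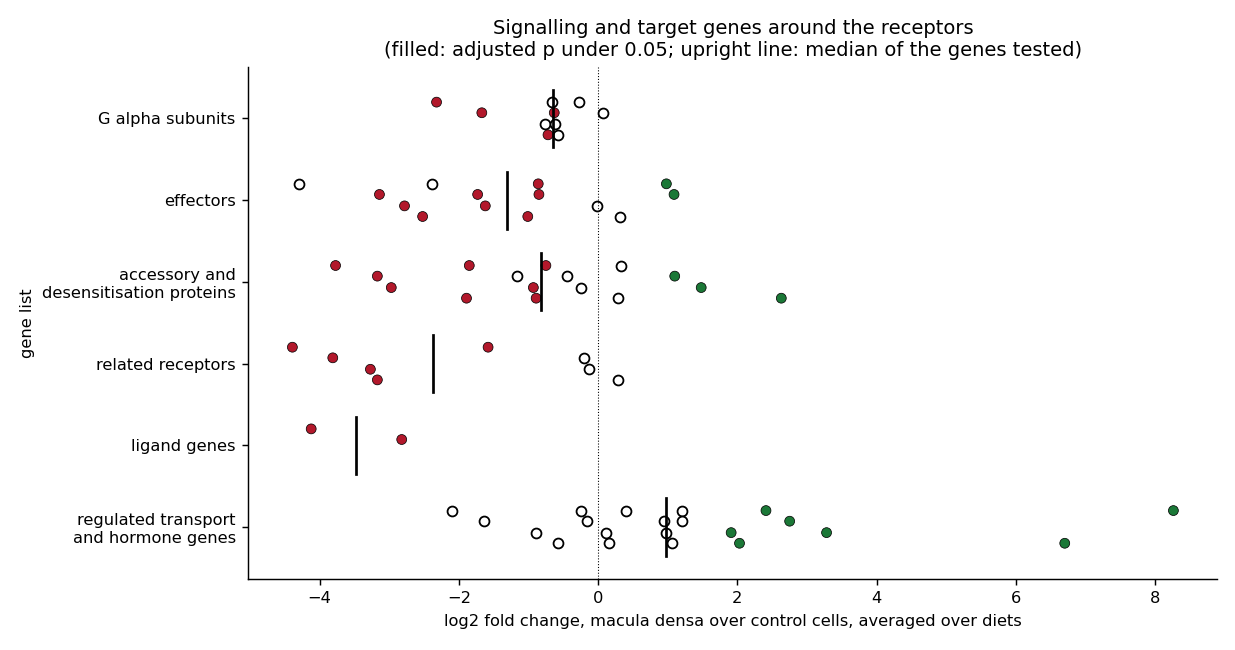
Log2 fold change of macula densa over control cells, averaged over diets, for each tested gene of 6 lists around the receptors (x axis); filled points passed an adjusted p of 0.05 and upright lines are medians. The medians lie at -0.64 for G alpha subunits, -1.32 for effectors, -0.82 for accessory genes, -2.37 for related receptors, -3.47 for ligand genes and 0.98 for regulated transport and hormone genes, beside -0.06 for all genes tested. The filter on low counts favours lower values for genes high in control cells alone, as for both ligand genes.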

How the data were processed

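RNA was sequenced from 12 libraries of cells sorted from kidney cortex. Per the labels' protocols, RNA came from a Qiagen miRNeasy kit and all libraries were made together with a stranded Takara Pico v2 total-RNA kit. The submitters' processing notes name STAR 2.61, Partek and mm10. The values deposited by the authors were taken as estimated counts per gene from that processing, since 16.1% were not whole, and were rounded here. All gene starts equalled GENCODE M21. No column lacked a sample (0 columns).

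Genes were kept by filterByExpr of edgeR 4.0.16 (R 4.3.3; count minimum 10, total minimum 15), scaled by TMM and fitted with glmQLFit and glmQLFTest, 1 coefficient per group. A self-test on simulated counts was run. Ratios to Slc12a1 used an offset of 0.5 counts. Alternatives included DESeq2 1.42.0, other scalings and filters, blocks and leaving out each library.

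All 7 receptors were named. From the pathway lists, counts are given with up to 5 called genes of smallest p in detail. The receptors and lists were chosen with earlier results of these data known. One marker gene of the cell type lists is not reported here and was left out of its list's sum.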

Additional observations from a re-analysis of the deposited data

How the results depend on the processing

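Over 6 receptors, 6 comparisons and all alternatives, 658 values kept direction and side of the threshold, 32 lost a call, 12 gained one and 10 changed sign. The 4 calls on low salt with enalapril fell to 1 at an adjusted p of 0.01. The 3 on control diet fell to 1 with only the groups compared. Leaving out single libraries gave 1 to 4 calls on control diet, 1 to 5 on low salt with enalapril, and 4 to 5 averaged over diets. The 0 calls for treatment in macula densa cells became 1 (Pth1r) with the DESeq2 Wald test and with only the groups compared.

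Replicate numbers in titles, and numbers in descriptions shared by 4 pairs of libraries, are not explained by the labels. Deviations of libraries sharing a description number correlated at -0.04, 0.23, -0.02 and 0.08. Those of the 2 populations sharing a title number correlated at -0.23 to 0.25. With 2 macula densa libraries per diet, their deviations from the group mean are mirror images, so these values cannot exclude a shared animal. Neither number was taken as a pairing in the main fit. A replicate block by title number kept only replicates 1 and 2 where the populations were compared. It gave 5 receptors called on control diet and 1 (Pth1r) for treatment in macula densa cells. P2ry2 lost its averaged call (edgeR adjusted p = 0.0716). A block by description number (8 libraries) gave 4 calls on each diet and 5 averaged. On low salt with enalapril these were 4 higher and 0 lower, as P2ry2 lost its call (edgeR adjusted p = 0.184) and Avpr1a gained one (0.000793). The same 8 libraries without a block also gave 4 higher and 0 lower on each diet, and 4 higher and 1 lower averaged. These changes can therefore not be credited to the block.

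Sign changes all concerned differences that had not passed the test. With the title block these were the Casr treatment difference in control cells (0.21) and the differences between treatment effects of Avpr1a (-1.18) and Casr (-1.43), the last also with the description block (-0.01). Without control-cell replicate 4 on control diet these became 0.29, -0.7 and -0.33, and P2ry2 in control cells 0.04 (0.03 without low-salt control-cell replicate 2). Casr in macula densa cells became 0.04 without low-salt macula densa replicate 1. The Avpr1a ratio to Slc12a1 became 0.3, 0.03 and 0.18 without low-salt control-cell replicate 1, control-diet replicate 2 and low-salt replicate 4. Over single libraries left out, these differences spanned -0.67 to 0.29 (Casr) and -0.56 to 0.04 (P2ry2) in control cells, -0.26 to 0.04 (Casr) in macula densa cells, and -0.7 to 1.56 (Avpr1a) and -0.33 to 0.6 (Casr) between effects, and the ratio -0.82 to 0.3. The cause was not tested.

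Scaling by library totals alone moved the averaged median of all genes from -0.06 to 0.14 and its calls from 1061 higher and 1966 lower to 1827 and 1450, with 4 receptors higher and 1 lower under either. On control diet the split moved from 382 and 556 to 542 and 328, and on low salt with enalapril from 446 and 585 to 736 and 392. Calcr, Sucnr1 and, in macula densa cells, P2ry2 rested on few counts, and the part of sequencing depth in this was not tested.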
